A study of Mus musculus with 6 samples.

Results

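The nuclear lamina and LINC complex genes described here are 10 genes taken by name from the deposited table of 26743 genes: Lmna, Lmnb1, Lmnb2, Lbr, Sun1, Sun2, Sun3, Syne1, Syne2 and Dpy19l2. All 10 were found and all 10 passed the filter on low counts. RNA-seq was performed on whole testes at post-natal day 21 from 3 wild-type (WT) and 3 Trf2-/- mice, using stranded libraries of total RNA depleted of ribosomal RNA. Trf2 encodes a relative of the TATA-binding protein and is listed as Tbpl1. Germ cells first reach the haploid stage at about this age, and the study took it so that loss of later cells in the mutant would weigh less on whole-testis RNA. The labels give genotype, age and tissue for each mouse, and neither a strain nor a tissue-specific driver for the inactivation. The study describes the 3 mice of a genotype as independent biological replicates.

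The lamina is a meshwork of lamin filaments beneath the inner nuclear membrane. LINC complexes cross both nuclear membranes: SUN proteins sit in the inner membrane and bind the KASH domains of nesprins in the outer one, which connect to the cytoskeleton. In meiosis these bridges move chromosome ends along the nuclear envelope. In spermatids they help to couple the nucleus to the manchette, a transient skirt of microtubules, while Dpy19l2 holds the acrosome to the nucleus.

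The libraries held between 21582123 and 29859347 gene counts in WT mice. Those of Trf2-/- mice held between 15187062 and 24530489, with the lowest total in mouse 3. Levels are given in CPM, each gene's counts relative to the TMM-scaled library size. At these depths 3 counts, the limit that a count of 0 allows, amount to 0.104 to 0.144 CPM in WT and 0.119 to 0.189 CPM in Trf2-/- mice, covering counting error only. Tbpl1, the inactivated gene, was at 308, 283 and 293 CPM in WT and at 62.9, 64.3 and 55.7 CPM in Trf2-/- mice, a log2 fold change of -2.27. The labels of all 6 libraries therefore match the level of the targeted gene, which was low but not at 0 in the mutants. Genotypes were compared with the quasi-likelihood test of edgeR, and a gene passed at a Benjamini-Hochberg adjusted p under 0.05.

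Of the 10 members, 3 were down-regulated in Trf2-/- testis, namely Dpy19l2, Sun3 and Sun1. None was up-regulated, and none of the 3 changed 2-fold. Among all 16924 genes tested, 20.2% passed as lower, 4.30% passed as lower by at least 2-fold and 11.2% passed as higher. The members' share of 30.0% lower stands against that background of 20.2%, and with 10 genes it rests on 3 of them. The members were chosen with earlier results of these data known, so this share is descriptive and not an independent test. WT and mutant mice were fully separated for 4 members (Dpy19l2, Sun3, Sun1 and Lbr), whereas 49.2% of all tested genes had no overlap. The median log2 fold change was -0.01 over the members and 0.04 over all tested genes.

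**Figure D1:**
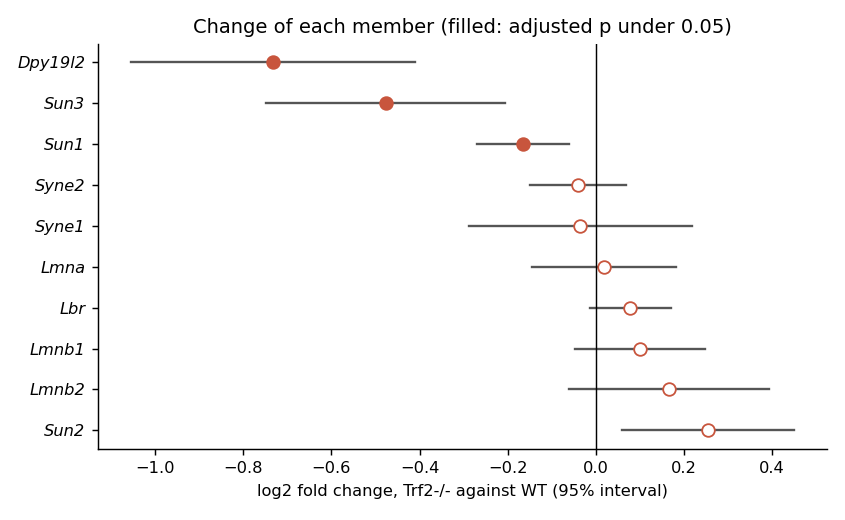
The log2 fold change of each member, Trf2-/- against WT, is plotted on the x axis with its 95% interval, and filled points mark an adjusted p under 0.05. Dpy19l2, Sun3 and Sun1 lie to the left of 0 at -0.73, -0.48 and -0.17, and the interval of Sun2 lies to the right of 0 although its adjusted p was 0.0508.

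The largest change was that of Dpy19l2 (ENSMUSG00000085576, NCBIM37 chromosome 9, 24361492 to 24500737, minus strand). The locus overlaps Cypt4 on the opposite strand, without a shared exon base. The product of Dpy19l2 is a membrane protein of the spermatid's inner nuclear envelope that anchors the acrosome, and its loss causes sperm with round heads. It was at 246, 233 and 249 CPM in WT and at 158, 172 and 107 CPM in Trf2-/- mice. All mutant values lay below all WT values, and mouse 3 was the lowest. The mean was 243 ± 8.19 CPM (SD, n = 3) in WT and 146 ± 34.0 CPM (SD, n = 3) in Trf2-/- testis, a fall of 40.0%. The log2 fold change was -0.73 with a standard error of 0.14 and an adjusted p of 0.00498. It passed in each of the 12 alternative analyses, between -0.88 when Trf2-/- mouse 2 was left out and -0.55 when mouse 3 was. The relatives Dpy19l1, Dpy19l3 and Dpy19l4 did not pass, with log2 fold changes of 0.04, 0.21 and 0.00.

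Sun3 (ENSMUSG00000040985, NCBIM37 chromosome 11, 8916057 to 8948994, minus strand) encodes a SUN protein of spermatids that lies where the manchette meets the nucleus. It had 323, 344 and 262 counts in WT and 229, 227 and 120 counts in Trf2-/- mice. Scaled to library size it was at 11.2, 13.2 and 12.6 CPM in WT and at 9.08, 9.73 and 7.58 CPM in Trf2-/- mice. The genotypes did not overlap and Trf2-/- mouse 3 was again the lowest. The mean went from 12.3 ± 0.981 to 8.79 ± 1.10 CPM (SD, n = 3 each). On the log2 scale the change was -0.48 ± 0.12 (SE) with an adjusted p of 0.0164. The call was lost without WT mouse 2 (-0.43, adjusted p = 0.0712) or WT mouse 3 (-0.47, adjusted p = 0.0513).

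Sun3 shares 123 of its exon bases, 9.47% of them, with Gm11992 on the opposite strand. Gm11992, with about 1190 counts in the median library, went from 65.5 ± 2.96 to 40.2 ± 4.78 CPM (SD, n = 3 each), a log2 fold change of -0.70 with an adjusted p of 0.000723. The strand setting of the read counting is not given in the sources used here, so the part of Gm11992 reads in the Sun3 counts was not tested.

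Sun1 (ENSMUSG00000036817, NCBIM37 chromosome 5, 139676591 to 139725794, plus strand) encodes the SUN protein that holds telomeres at the nuclear envelope in meiosis. It was at 232, 232 and 222 CPM in WT and at 196, 207 and 209 CPM in Trf2-/- mice, so the genotypes did not overlap. Here Trf2-/- mouse 1, not mouse 3, was the lowest. The mean went from 229 ± 6.04 to 204 ± 7.30 CPM (SD, n = 3 each), or by -0.17 ± 0.05 (SE) on the log2 scale with an adjusted p of 0.0251. This small change did not pass with library size in place of TMM scaling (-0.07, adjusted p = 0.259), or without WT mouse 1, WT mouse 2 or Trf2-/- mouse 1 (adjusted p = 0.0851, 0.0971 and 0.0815).

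The sequences before the start of the 3 down-regulated members are shown because Trf2 is related to the factor that binds the TATA box, and CREM, a regulator of spermatid genes, binds the CRE. The study states, however, that Trf2 lacks selective binding to the TATA element. It also found few genes lowered by loss of both CREM and Trf2. Each window holds the 250 bases upstream of the start given by RefSeq (GRCm38.p6) and matches NCBIM37 exactly at 1 place, ending where the annotated gene begins. RefSeq gives Sun1 and Sun3 another start inside the gene, which is not shown. The motifs below were searched on both strands, and capitals mark the matches. They were the TATA box (TATAAA), the whole CRE (TGACGTCA), its half-site TGACG, which every whole CRE contains, and the CCAAT box (CCAAT).
Dpy19l2, NCBIM37 chr9:24500738-24500987, minus strand: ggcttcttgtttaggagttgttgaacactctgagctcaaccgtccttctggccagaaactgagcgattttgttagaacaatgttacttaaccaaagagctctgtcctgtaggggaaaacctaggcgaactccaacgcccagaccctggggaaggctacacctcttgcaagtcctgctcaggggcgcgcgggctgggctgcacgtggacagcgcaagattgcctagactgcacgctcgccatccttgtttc
Sun3, NCBIM37 chr11:8948995-8949244, minus strand: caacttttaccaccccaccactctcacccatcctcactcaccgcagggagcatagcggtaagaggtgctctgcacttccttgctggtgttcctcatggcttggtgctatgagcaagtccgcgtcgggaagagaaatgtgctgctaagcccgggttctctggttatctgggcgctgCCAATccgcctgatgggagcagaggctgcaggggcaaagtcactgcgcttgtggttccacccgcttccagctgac
Sun1, NCBIM37 chr5:139676341-139676590, plus strand: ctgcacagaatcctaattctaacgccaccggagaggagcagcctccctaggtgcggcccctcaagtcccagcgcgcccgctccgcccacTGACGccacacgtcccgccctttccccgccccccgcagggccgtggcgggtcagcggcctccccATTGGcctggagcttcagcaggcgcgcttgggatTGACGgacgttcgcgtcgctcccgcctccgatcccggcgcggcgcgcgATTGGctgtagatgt
The Dpy19l2 window, with a GC content of 54.4%, held none of these letters. The Sun3 window (58.4% GC) held a CCAAT box 75 bases before the start. The GC-rich Sun1 window (70% GC) held TGACG at 161 and 63 bases before the start and CCAAT on the reverse strand, read as ATTGG, at 97 and 15 bases. Of 32851 windows of the same length, 12.4% held TATAAA, 1.55% TGACGTCA, 17.8% TGACG and 33.8% CCAAT. The other Sun1 window held TATAAA at 214 bases and CCAAT at 209 bases before its start, both on the reverse strand, and the other Sun3 window held none of the motifs. No match says only that these letters are not in the window.

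Sun2 (ENSMUSG00000042524, NCBIM37 chromosome 15, 79554500 to 79572966, minus strand), the widely expressed relative of Sun1, did not pass. It was at 96.8, 84.1 and 81.2 CPM in WT and at 96.5, 101 and 116 CPM in Trf2-/- mice. Mutant mouse 1 lay within the WT range and mouse 3 was the highest. The mean was 87.4 ± 8.30 CPM in WT and 105 ± 10.3 CPM in Trf2-/- testis (SD, n = 3 each). The log2 fold change was 0.26 (95% interval 0.06 to 0.45) with an adjusted p of 0.0508, and over the 12 alternatives the adjusted p ran from 0.0129 to 0.161 and passed in 7. Sun2 shares 147 exon bases with Gm16575, an antisense RNA with a median of 8.5 counts.

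Sun1 and Sun2 bind the same nesprins, so their ratio within each library was also compared. The level of Sun2 per kb was 0.543 times that of Sun1 in WT and 0.728 times in Trf2-/- testis. The log2 ratio was -0.75, -0.95 and -0.94 in WT mice and -0.51, -0.53 and -0.34 in Trf2-/- mice, without overlap. The difference of 0.42 gave p = 0.1 in a two-sided exact permutation test, the smallest p that 3 against 3 mice allow, and 0.25 after Benjamini-Hochberg adjustment over the 5 ratios tested. The Sun3 to Sun1 ratio moved by -0.33 on the log2 scale, from 0.244 to 0.194, also without overlap and with the same p. None of the 5 ratios passed, and this design could not have given a pass.

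The lamins and the lamin B receptor showed no change that passed. Lmna (ENSMUSG00000028063, NCBIM37 chromosome 3, 88285070 to 88313878, minus strand), which encodes the A-type lamins, was at 30.4, 30.4 and 34.7 CPM in WT and at 32.0, 33.6 and 30.9 CPM in Trf2-/- mice. Its log2 fold change was 0.02 with a 95% interval from -0.14 to 0.18, and the genotypes overlapped fully. Lmnb1 (ENSMUSG00000024590, chromosome 18), a B-type lamin, was at 45.0, 42.4 and 43.6 CPM in WT and at 45.8, 44.2 and 50.7 CPM in Trf2-/- mice. Mutant mouse 3 was the highest, and the log2 fold change was 0.10 (95% interval -0.05 to 0.25, adjusted p = 0.265). Lmnb2 (ENSMUSG00000062075, NCBIM37 chromosome 10, 80363948 to 80380990, minus strand), the other B-type lamin gene, was at 17.4, 16.9 and 18.6 CPM in WT and at 17.6, 19.5 and 22.5 CPM in Trf2-/- mice. Its log2 fold change was 0.17 (95% interval -0.06 to 0.39, adjusted p = 0.230).

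The ratio of Lmna to Lmnb1 per kb differed by -0.08 on the log2 scale and that of Lmnb2 to Lmnb1 by 0.06, each with p = 0.5 (two-sided exact permutation test). Lbr (ENSMUSG00000004880, NCBIM37 chromosome 1, 183745447 to 183772532, minus strand) encodes the lamin B receptor, an inner membrane protein that binds heterochromatin and also acts as a sterol reductase. It was at 148, 150 and 147 CPM in WT and at 154, 159 and 157 CPM in Trf2-/- mice. The genotypes did not overlap, but the difference was small (log2 fold change 0.08, 95% interval -0.01 to 0.17, adjusted p = 0.165). With library size in place of TMM scaling, which moved the median of all tested genes from 0.04 to 0.13, Lbr (0.17, adjusted p = 0.0113) and Lmnb1 (0.20, adjusted p = 0.0453) passed as higher. That scaling also changed the split over all tested genes from 3423 lower and 1889 higher to 2692 lower and 4265 higher.

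The nesprin genes did not pass either. Syne2 (ENSMUSG00000063450, NCBIM37 chromosome 12, 76919121 to 77211913, plus strand), which encodes nesprin-2, had the most counts of the members and was at 737, 757 and 810 CPM in WT and at 754, 733 and 755 CPM in Trf2-/- mice. The ranges overlapped and the log2 fold change was -0.04 (95% interval -0.15 to 0.07). Syne1 (ENSMUSG00000019769, NCBIM37 chromosome 10, 4795849 to 5326338, plus strand), which encodes nesprin-1, was at 71.6, 71.9 and 79.2 CPM in WT and at 59.0, 76.0 and 82.9 CPM in Trf2-/- mice. The mutant mice spread on both sides of the WT range, and the log2 fold change was -0.03 (95% interval -0.29 to 0.22). The ratio of Syne2 to Syne1 per kb was 14.1 in both genotypes (p = 1.0, two-sided exact permutation test).

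**Figure D2:**
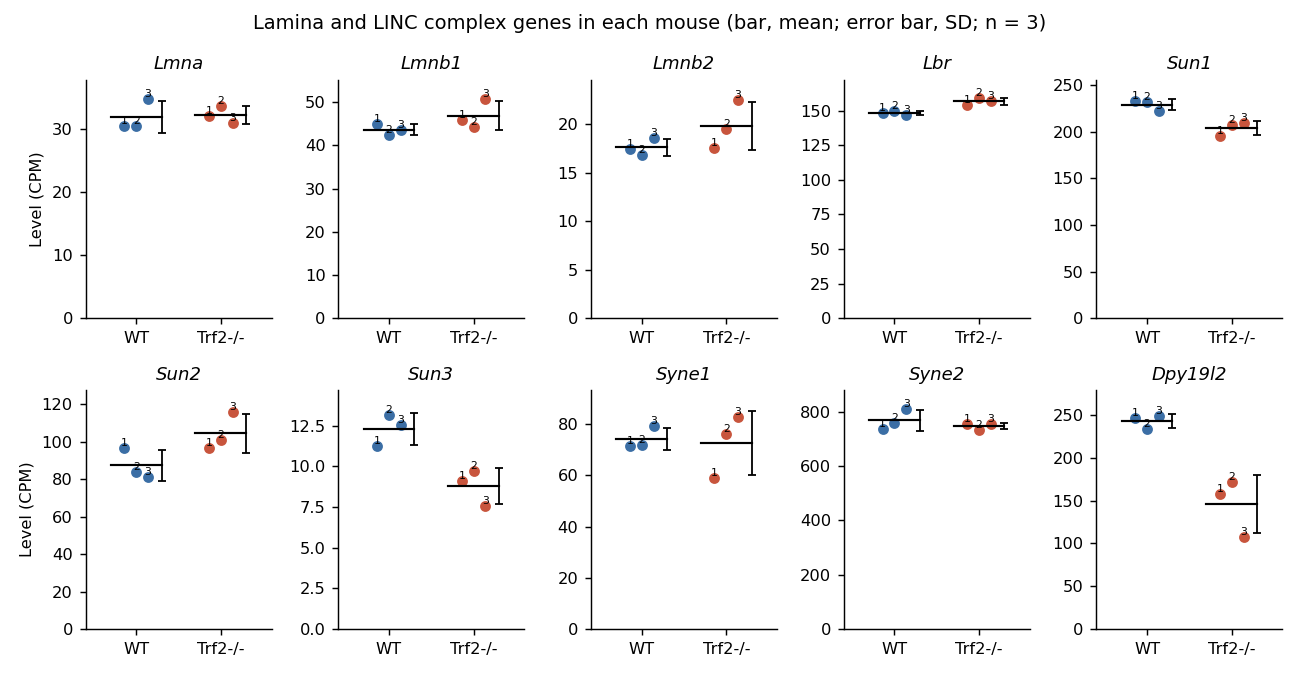
Each panel plots 1 member, with its level in CPM on a y axis that starts at 0 and 1 point for each of the 3 WT and 3 Trf2-/- mice, numbered by mouse (line, mean and error bar, SD). The genotypes stand fully apart for Lbr, Sun1, Sun3 and Dpy19l2, and Trf2-/- mouse 3 is the lowest point for Dpy19l2 (107 CPM) and Sun3 (7.58 CPM).

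Levels of different genes were compared per kb of the length in the deposited table. In WT testis Dpy19l2 had the highest level, 70.5 ± 2.38 CPM per kb (SD, n = 3), followed by Lbr at 41.8 ± 0.347, Sun1 at 38.8 ± 1.03 and Syne2 at 33.6 ± 1.63 CPM per kb. Sun2 (21.1 ± 2.01 CPM per kb) and Lmnb1 (15.4 ± 0.455 CPM per kb) came next. The lowest levels per kb were those of Sun3 at 9.49 ± 0.755, Lmna at 8.97 ± 0.694, Lmnb2 at 4.11 ± 0.200 and Syne1 at 2.38 ± 0.138. Sun3 and Lmna were the only neighbours in this WT order whose mice overlapped.

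In Trf2-/- testis Lbr stood first at 44.1 ± 0.644 CPM per kb and Dpy19l2 second at 42.3 ± 9.89 CPM per kb. The Dpy19l2 level ran from 31.1 to 49.8 CPM per kb over the mutant mice, a range that covered those of Lbr, Sun1 and Syne2, so its place among them was not separated by the spread. Lbr and Sun1 did not overlap with each other. Sun3 fell from 7th to 8th place at 6.77 ± 0.848 CPM per kb, below Lmna at 9.06 ± 0.384. The annotation's exon length differed from the table's for Lmna, Lmnb1, Sun1, Sun2 and Syne2. With it the WT order was the same, and in Trf2-/- testis Sun1 and Syne2 exchanged places at 26.9 and 28.0 CPM per kb. The ratios between paralogs given above used the table's lengths, and their sizes depend on that choice. Their differences between genotypes on the log2 scale do not, because the same lengths apply to both.

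**Figure D3:**
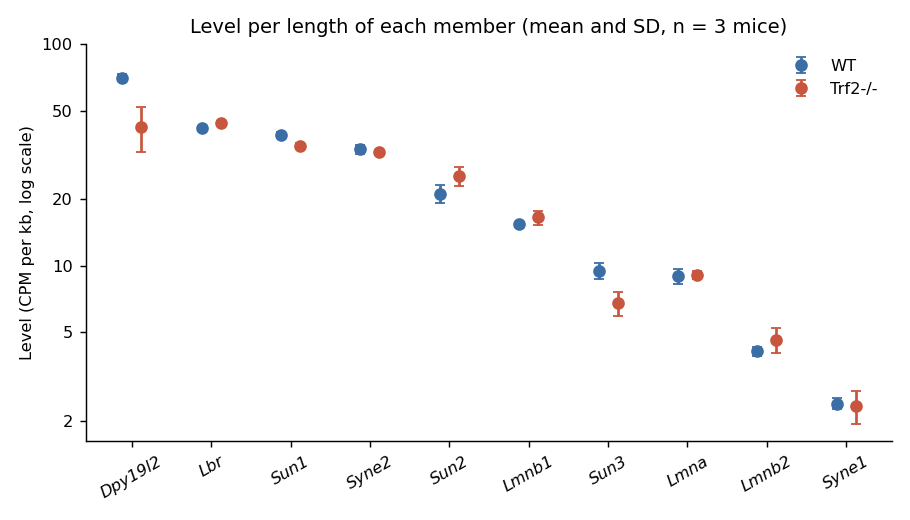
Mean level per length of each member, in CPM per kb on a log axis, with SD over 3 WT and 3 Trf2-/- mice. Dpy19l2 leads in WT at 70.5 CPM per kb and stands beside Lbr in Trf2-/- testis at 42.3 against 44.1 CPM per kb.

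A further 61 genes of the nuclear envelope, the acrosome and the manchette were counted as partners of the members. These genes and their lists were chosen with earlier results of these data known, so their shares are descriptive and not an independent test. Tor1aip2 has 2 entries in the table, and 59 of the 62 entries were tested. Of these, 28 were lower (47.5%, against 20.2% of all tested genes) and 2 were higher (3.39%, against 11.2%). The genotypes did not overlap for 42 entries (71.2%, against 49.2%), and the median change was -0.18 on the log2 scale.

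Among lamina-associated proteins, 2 of 14 tested entries fell and 2 rose, with a median of 0.05. These shares of 14.3% each were near those of all tested genes, 20.2% lower and 11.2% higher. Ankle2, which acts with Banf1 when the nuclear envelope reforms, changed by -0.25 on the log2 scale (adjusted p = 0.00624), and 1 entry of Tor1aip2, a partner of torsin ATPases, by -0.20 (adjusted p = 0.0327). The other entry of Tor1aip2 did not pass (0.05, adjusted p = 0.531 by the same test). Tmem43, a membrane partner of lamins and emerin, was higher by 0.22 (adjusted p = 0.0416 by the same test) and the chromatin-binding Banf1 by 0.16 (adjusted p = 0.0484). Neither rise passed with DESeq2. Of the 5 lamin-processing enzymes, Fnta, the alpha subunit of farnesyltransferase (-0.32, adjusted p = 0.00302), and Rce1, the protease that trims farnesylated lamins (-0.23, adjusted p = 0.0221), were lower (40.0%, against 20.2% of all tested genes), and the median was -0.10.

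Other LINC and telomere-attachment genes had 3 of 8 tested lower (37.5%, against 20.2% of all tested genes) and a median of -0.02. Spag4, a SUN protein of spermatids, changed by -0.52 on the log2 scale (adjusted p = 0.0322). Terb1, which joins telomeres to the inner nuclear membrane in meiosis, had -0.45 (adjusted p = 0.000610), whereas its partners Terb2 and Majin did not pass at 0.21 and 0.18. Kash5, the meiotic partner of Sun1 that binds dynein, had -0.19 (adjusted p = 0.00846). Sun5, a SUN protein of the sperm neck, did not pass the filter on low counts. It had 15, 12 and 9 counts in WT and 0, 1 and 0 in Trf2-/- mice. Lemd1 and Spem1 did not pass that filter either.

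The list of Dpy19 paralogs and acrosome-attachment genes had 10 of 17 lower (58.8%, against 20.2% of all tested genes). None was higher, and the median was -0.23. Of the 10, 5 were at least 2-fold lower, which held for 4.30% of all tested genes. Spata46, counted in this list but a protein of the spermatid nuclear envelope, went from 1.21 ± 0.248 to 0.0978 ± 0.108 CPM (SD, n = 3 each, log2 fold change -3.43, adjusted p = 0.00153). Actl7a, an actin-like protein beneath the acrosome, went from 1.53 ± 0.240 to 0.137 ± 0.119 CPM (-3.27, adjusted p = 0.00118), and in both genes 1 mutant mouse had no count. No Trf2-/- mouse had more than 5 counts of either gene, so the sizes of these 2 changes are uncertain. Fam209, a partner of Dpy19l2, had -1.51 (adjusted p = 0.0158) and Actl7b -1.04 (adjusted p = 0.00210).

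The manchette genes had 11 of 15 tested lower (73.3%, against 20.2% of all tested genes) and a median of -0.43. A fall of at least 2-fold was seen in 1 of them, against 4.30% of all tested genes. This was Rimbp3, a manchette protein that binds Hook1, at 418, 387 and 385 CPM in WT and 113, 130 and 79.6 CPM in Trf2-/- mice (log2 fold change -1.88, adjusted p = 0.000197). Spef2 (-0.90, adjusted p = 0.000621) and Katnal2, a relative of the microtubule-severing katanin (-0.70, adjusted p = 0.000561), followed.

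**Figure D4:**
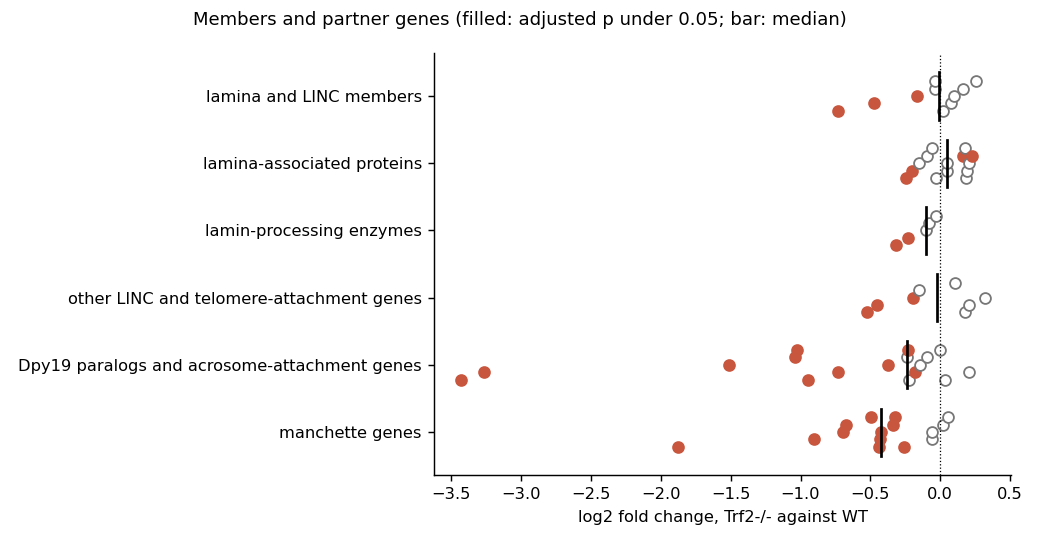
Each point is 1 gene, placed by its log2 fold change (x axis, Trf2-/- against WT) in the members and the 5 partner lists. Filled points have an adjusted p under 0.05 and bars are medians, which are near 0 for the members and lamina-associated proteins and lie at -0.23 for the acrosome list and -0.43 for the manchette list.

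Markers of the germ cell stages differed between the same libraries. Over all tested genes, 20.2% were lower and 11.2% were higher. The marker lists were also chosen with earlier results of these data known, so their shares are descriptive. All 7 round spermatid markers were lower (median -2.49 on the log2 scale), and their summed level was 12.4 to 15.1 CPM in WT and 2.72 to 4.03 CPM in Trf2-/- mice. Tssk1 alone held a mean of 7.35 CPM in WT and 2.75 CPM in Trf2-/- mice. No Trf2-/- mouse had more than 3 counts of Acrv1, Catsper4 or Spaca3, so the sizes of their changes are uncertain. All 4 elongating spermatid markers that passed the filter on low counts were lower (median -3.05), and their list summed to 6.85 to 8.57 CPM in WT and 0.947 to 1.63 CPM in Trf2-/- mice. Gapdhs had at most 2 counts in any Trf2-/- mouse. The study places elongated spermatids at a later age and describes protamine and transition protein expression as low at this one. The sum of this list therefore does not measure a population of elongating cells. Prm2, Prm3, Tnp1 and Smcp did not pass the filter on low counts. Of 7 pachytene spermatocyte markers 6 were lower (median -0.25), and their sum was 5435 to 5891 CPM in WT and 3843 to 4601 CPM in Trf2-/- mice. Much of the fall in the sum was Ldhc, which went from a mean of 2277 to 1405 CPM. Ccna1, Pgk2 and Ldhc changed by -1.63, -1.37 and -0.70 on the log2 scale, and the other markers of this list by -0.25 to -0.09. Trf2-/- mouse 3, the lowest for Dpy19l2 and Sun3, was also the lowest for the pachytene, round and elongating spermatid sums. In a whole testis, fewer cells of a type and less RNA per cell cannot be told apart, and the part of cell composition in the changes of Dpy19l2, Sun3, Sun1 and the partner genes was not tested.

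Markers of earlier germ cells and somatic cells moved less or the other way. The shares higher in the spermatogonia (12.5%), Leydig cell (14.3%) and peritubular lists (16.7%) were near the 11.2% of all tested genes. The early spermatocyte and Sertoli cell (42.9% each), macrophage (62.5%) and endothelial lists (33.3%) were above it. Of the peritubular markers 16.7% were lower, near the 20.2% of all tested genes. Of 7 early spermatocyte markers 3 were higher and none lower (summed level 1618 to 1667 CPM in WT and 1876 to 1994 CPM in Trf2-/- mice), and of 8 spermatogonia markers 1 was higher (249 to 266 and 257 to 342 CPM). Sertoli cell markers had 3 of 7 higher, at 1592 to 1717 CPM in WT and 1824 to 2023 CPM in Trf2-/- mice. Macrophage markers had 5 of 8 higher (178 to 201 and 203 to 400 CPM), and endothelial markers 2 of 6 (50.6 to 53.7 and 59.4 to 75.2 CPM). Leydig cell sums (235 to 408 and 229 to 386 CPM) and peritubular sums (398 to 491 and 457 to 509 CPM) overlapped between genotypes, with 1 of 7 higher and with 1 of 6 higher and 1 lower. The Sertoli, spermatogonia and early spermatocyte sums were highest in Trf2-/- mouse 3, which was also the highest mouse for Sun2, Lmnb1, Lmnb2 and Syne1. Among the Trf2-/- mice, the Leydig cell, macrophage and endothelial sums were lowest in mouse 3. No marker found in the table was at 0 in all mice.

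**Figure D5:**
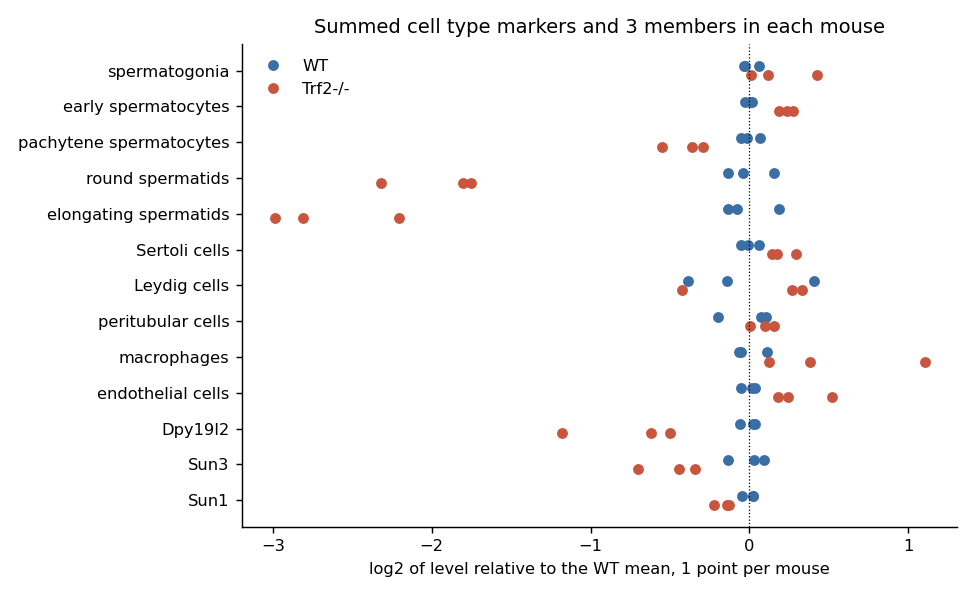
Each row gives the summed level of a marker list, or the level of Dpy19l2, Sun3 or Sun1, in each mouse as the log2 ratio to the WT mean (x axis), with 1 point per mouse and genotype by colour. The round and elongating spermatid sums of the Trf2-/- mice, 2.72 to 4.03 CPM and 0.947 to 1.63 CPM, lie farthest to the left, and Dpy19l2 and Sun3 lie between them and the WT mice.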

How the data were processed

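Total RNA of whole testes from 3 WT and 3 Trf2-/- mice was sequenced as single-end reads of 50 bases and aligned to NCBIM37 (mm9) with Tophat by the authors. The submitters' processing notes name CASAVA 1.8.2, TopHat2 2.0.10, Bowtie2 2.1.0, HTSeq 0.5.4p3 and DESeq2 1.0.19. The authors deposited raw read counts per gene. Another 12 columns with normalized values were left unused. The annotation release, the strand setting and the treatment of reads shared between genes are not given in the sources used here. Totals ran from 15187062 to 29859347 counts.

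Of 26743 genes, 16924 passed filterByExpr and were tested with edgeR 4.0.16 (R 4.3.3, limma 3.58.1) using TMM factors, glmQLFit, glmQLFTest and Benjamini-Hochberg adjustment over all tested genes, with genotype as the sole term. The biological coefficient of variation was 0.0838. Ratios between paralogs were tested by exact permutation over mice. On simulated counts for the 16924 genes of this comparison, edgeR called 95% of 100 genes changed by a log2 fold change of 1.5, 82% of 100 changed by 0.7, and 16 of 16540 unchanged genes. The changed genes were drawn above a minimum level, equally up and down, and were a far smaller share than the genes that passed here. Changes as small as those of Sun1 and Sun2 were not simulated. Pairs of mice of a genotype differed by at least 3.51 times the sampling noise (chi-square over degrees of freedom), so none was a library deposited again.

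The alternatives were DESeq2 size factors, library size alone, 2 other filters, DESeq2 1.42.0 (Wald test), the replicate number as a block and each mouse left out. A level per annotated exon length was added after seeing the data. The members and lists were chosen with earlier results of these data known. Named were all members, up to 4 passing genes of each partner list with the largest changes, listed genes that failed the filter, and genes overlapping a member. One gene that this rule names is not reported here. Relatives and partners of a named gene that did not pass (Dpy19l1, Dpy19l3, Dpy19l4, Terb2 and Majin) were named after their values were seen. Markers that dominated a sum, changed most within their list or had few counts were named in the same way. Of the partners, 9 were matched by an older symbol.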

Additional observations from a re-analysis of the deposited data

How the results depend on the processing

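No member that passed changed direction under any of the 12 alternative analyses. The count of members down-regulated, 3, became 1 at an adjusted p under 0.01 and 0 at 2-fold, and ranged from 1 to 3 when 1 mouse was left out, with 1 without WT mouse 2. Members up-regulated, 0 as reported, numbered 1 with DESeq2 size factors, without the filter, with at least 10 counts in every mouse and with the DESeq2 Wald test, in each case Sun2, and 3 with library size only. They ranged from 0 to 1 when 1 mouse was left out. Partner genes down-regulated, 28 as reported, numbered 6 at 2-fold. Partner genes up-regulated, 2 as reported, numbered 1 with DESeq2 size factors, 11 with library size only, and 0 without the filter, with at least 10 counts in every mouse, with the DESeq2 Wald test, with the replicate block, at an adjusted p under 0.01 and at 2-fold. They ranged from 0 to 2 when 1 mouse was left out. With other thresholds the change follows from the threshold, and elsewhere the cause was not tested.

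Same-numbered mice did not deviate together (r = -0.06, -0.08 and -0.08), so the numbers were not taken as pairs. With the replicate block 2 members (Sun1 had an adjusted p of 0.0535) and 26 partner genes were down-regulated, and over all tested genes 3094 were lower and 1487 higher. Low counts kept Sun5, Lemd1 and Spem1 out of the reported test, and 3 mice per genotype limit the ratios, whose smallest p was 0.1.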
